A study of Rattus norvegicus with 2 samples.

Results

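The genes described here are NRF2, its inhibitor KEAP1, target genes of NRF2 and the enzymes of glutathione metabolism, measured in 2 colonies grown from the rat glioma line C6. They are a named list of 34 genes, and 33 of them were measured by an array feature that the platform annotation maps to exactly 1 gene symbol, among 18166 genes measured in all. The exception was Pgd, a dehydrogenase of the pentose phosphate pathway, whose 5 features each carry several symbols and were left out. The colonies, called No.8 and No.4 in the titles, are each 1 isolate and are both described as undifferentiated. Their culture medium held 10% serum. One treatment text, CHIR99021 (an inhibitor of the kinase GSK3) at 20 µM and forskolin (an activator of adenylyl cyclase) at 100 µM over 35 days, is attached to both, and the labels do not settle whether these RNAs were taken before or after it. Each colony was hybridized to 1 whole-transcript expression array, so no value has a replicate, no test was made, and a difference between the colonies cannot be told apart from a difference between 2 cultures or 2 hybridizations.

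NRF2, encoded by Nfe2l2, is a transcription factor that is held in the cytoplasm and sent for degradation by KEAP1 until electrophiles or oxidants modify KEAP1. Freed NRF2 enters the nucleus, pairs with small MAF proteins and binds the antioxidant response element, a short DNA motif near genes for glutathione synthesis, NADPH supply, the thioredoxin system and detoxification. Glutathione, the main thiol of the cell, reduces peroxides and is joined to electrophiles, and NADPH returns its oxidized form to use. In glioma cells this programme is known for its part in resistance to oxidative stress and to alkylating drugs.

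Most of these genes were lower in colony No.8 than in colony No.4, and the largest differences were those of the quinone reductase gene Nqo1, the transketolase gene Tkt and the glutathione transferase gene Gsta1. Levels are the deposited log2 values, and every difference is No.8 minus No.4. The floor was set at 4.33, the median over the whole table, and a gene was past it when 1 colony or both reached that level. This held for 11069 genes, among them 32 of the 33 measured members. Of these 32, 26 were lower and 6 were higher in colony No.8, while of all genes past the floor 45.5% were lower and 53.2% higher. The median difference was -0.53 over the 32 members and 0.04 over all genes past the floor. A difference of at least 1, which is 2-fold, was counted as large, and 10 members were at least 2-fold lower in colony No.8 against 2.57% of all genes past the floor. None was higher in No.8 by that much, where 2.91% of all genes were. The 10 were Nqo1, Tkt, Gsta1, Gpx1, Osgin1, Aox1, Taldo1, Gstp1, Gstm7 and Slc7a11. The list and the thresholds were chosen with earlier results of these data known, so these counts and shares are a description.

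**Figure D1:**
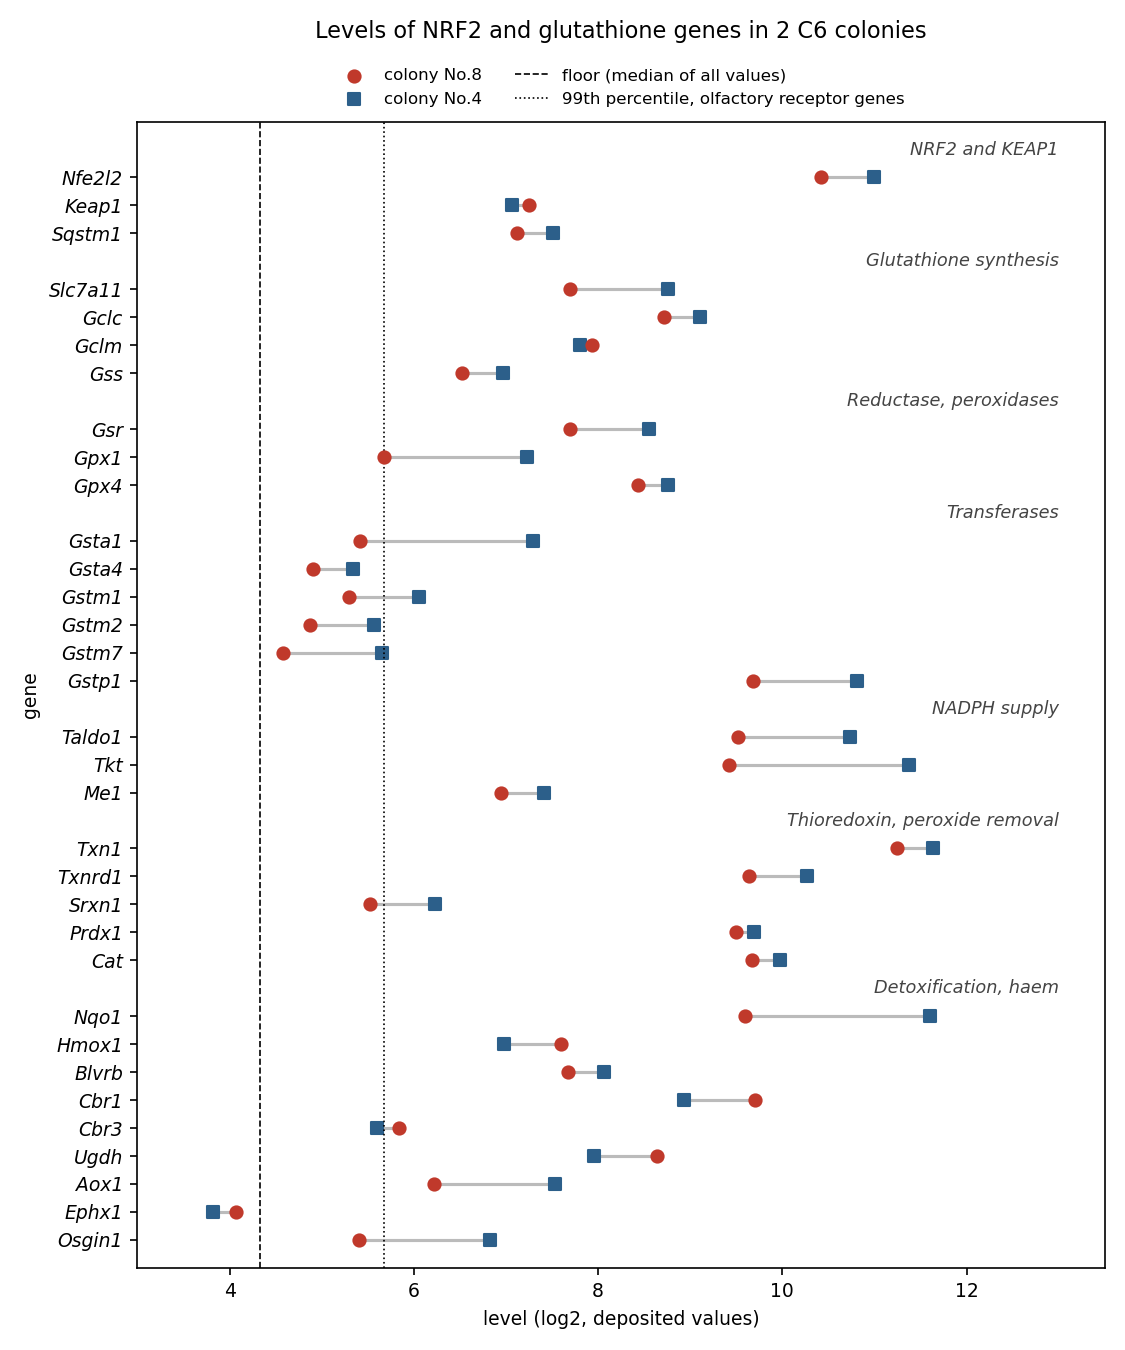
Level of each of the 33 measured genes (log2, deposited values, x axis) in colony No.8 (red circles) and colony No.4 (blue squares), 1 array each, grouped by role; the dashed line is the floor of 4.33 and the dotted line is 5.67, the 99th percentile of olfactory receptor genes. The red circle lies left of the blue square for 26 of the 32 genes past the floor, and Ephx1 lies below the floor in both colonies.

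The share of large differences depends on the level, so the members were also set beside genes of like level. Among genes whose brighter colony was at 8 or above, 5 of 16 members and 4.00% of all genes were at least 2-fold lower in colony No.8. Between 6 and 8 these were 4 of 12 members and 2.76% of genes, and below 6 they were 1 of 4 members and 1.23% of genes. The median difference of the members was -0.49, -0.59 and -0.56 in these 3 ranges, from the highest level to the lowest, against -0.03, 0.05 and 0.06 over all genes. Olfactory receptor genes, seldom expressed outside the nasal epithelium, served as a guide to background, and their 99th percentile was 5.67. No member at least 2-fold apart was below the floor in either colony, but Gsta1 and Osgin1 were under 5.67 in colony No.8 and Gstm7 was under it in both.

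**Figure D2:**
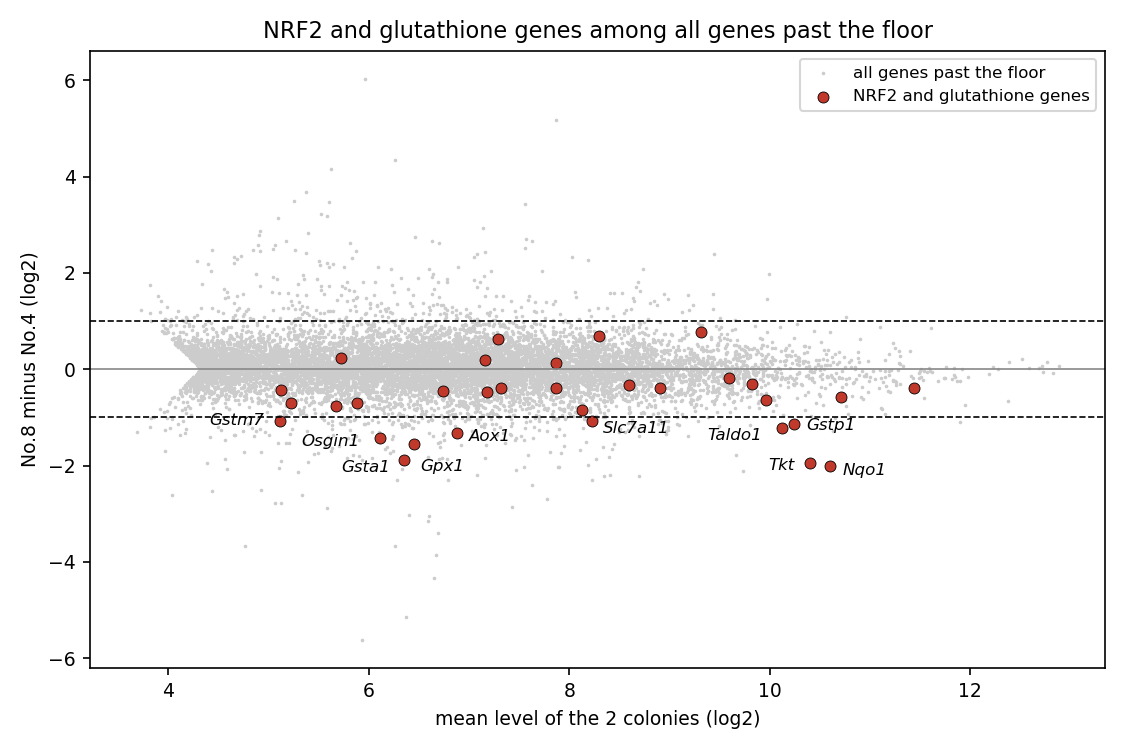
Difference between the colonies (No.8 minus No.4, log2, y axis) against the mean level of both (log2, x axis) for the 11069 genes past the floor (grey) and the 32 members among them (red, black outline), with dashed lines at 2-fold. The 10 named members lie below the lower dashed line at low, middle and high mean levels.

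The regulators themselves differed by less than 2-fold. Nfe2l2 was at 10.42 in No.8 and 11.00 in No.4, a difference of -0.58. Keap1, the adaptor that presents NRF2 to a ubiquitin ligase, was at 7.25 in No.8 and 7.07 in No.4, slightly higher in No.8. Sqstm1, which encodes the autophagy receptor p62, a protein that binds KEAP1, was at 7.12 in No.8 and 7.51 in No.4. Nfe2l2 and Sqstm1 were thus lower in No.8, as most targets were, and Keap1 was not.

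The antioxidant response element has a core written TGACNNNGC, where N is any base, and this core was searched on both strands of the RefSeq promoter windows of assembly GRCr8, from 250 bases before to 50 bases after each gene's start. Of the 34 named genes 32 matched the promoter table, with 36 windows, and Gsr and Hmox1 did not. The core was found for 10 of the 32 genes, and for 13.1% of all 27457 genes in the table or 15.1% of the 9094 that matched genes past the floor. The list was drawn up around NRF2 targets, so this share is a description of it. Each core is printed in capitals with up to 12 bases on each side, read along the gene's own strand, because these are the stretches that hold the letters of the element; a match is not a binding site shown by these data. Where the core lies on the opposite strand its letters read GCNNNGTCA.
Gstp1: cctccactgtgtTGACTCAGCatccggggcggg
Me1: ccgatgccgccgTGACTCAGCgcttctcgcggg
Gstm7: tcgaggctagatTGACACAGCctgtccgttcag
Gsta1: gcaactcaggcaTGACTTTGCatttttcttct
Nfe2l2: ccgactagccatTGACGCCGCctc
Prdx1: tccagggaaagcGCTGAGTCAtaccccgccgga
Ephx1: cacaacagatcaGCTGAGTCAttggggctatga
Gclm: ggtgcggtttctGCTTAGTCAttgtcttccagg
Txnrd1: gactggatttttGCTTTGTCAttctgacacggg
Ugdh: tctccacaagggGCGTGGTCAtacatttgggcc
Gstp1 and Me1 hold the same 9 letters, and Prdx1 and Ephx1 hold those 9 letters on the opposite strand. These letters include TGACTCA, the sequence known as the AP-1 site, so in these promoters the core and an AP-1 site overlap. The core began 61 bases before the start in Gstp1, 14 before it in Gstm7, 167 before it in Me1 and 172 before it in Gclm. In Prdx1, Txnrd1, Ephx1 and Ugdh it began 135, 78, 57 and 207 bases before the start, and in Gsta1 and Nfe2l2 it lay within the transcribed bases, beginning at base 31 and base 39.

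The differences of genes with and without the core in this window overlapped widely. Bases outside the window were not searched, so a gene without the core here may hold one elsewhere. The split therefore cannot separate genes with an element from genes without one. Of 9 genes past the floor with the core, 7 were lower in colony No.8 and 3 of them at least 2-fold, with differences between -1.88 (Gsta1) and 0.69 (Ugdh) and a median of -0.58. Of 21 genes past the floor without the core in this window, 18 were lower and 7 at least 2-fold, with differences between -2.01 (Nqo1) and 0.77 (Cbr1) and a median of -0.45. Over all genes past the floor, 45.5% were lower and 2.57% were lower by at least 2-fold. The window of Gstp1 (chr1:210769656-210769955, minus strand, GRCr8) is given whole, since it is the gene at least 2-fold lower in colony No.8, and above 5.67 in both colonies, that carries the core upstream of its start.
Gstp1 promoter: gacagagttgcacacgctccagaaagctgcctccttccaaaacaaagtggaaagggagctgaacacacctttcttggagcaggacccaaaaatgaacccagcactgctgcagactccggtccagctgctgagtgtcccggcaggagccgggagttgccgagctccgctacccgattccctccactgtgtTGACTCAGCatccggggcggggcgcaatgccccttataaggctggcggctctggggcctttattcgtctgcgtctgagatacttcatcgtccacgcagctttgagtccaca

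In glutathione synthesis the cystine transporter stood out, while the enzymes differed less. Slc7a11, the light chain of the antiporter that brings in cystine, was at 7.70 in No.8 and 8.76 in No.4, which was 2.09-fold lower in No.8. Glutamate-cysteine ligase makes the first and limiting step, and its 2 subunit genes went opposite ways. The catalytic subunit gene Gclc was at 8.71 in No.8 and 9.10 in No.4, a difference of -0.39. The modifier subunit gene Gclm was at 7.94 in No.8 and 7.80 in No.4, a difference of 0.14. Gss, the synthetase of the second step, was at 6.52 in No.8 and 6.97 in No.4. The median of the 4 genes was -0.42, and 3 of the 4 were lower in No.8, beside 45.5% of all genes past the floor.

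All 3 genes for the reduction of glutathione and of peroxides were lower in colony No.8, 1 of them by at least 2-fold. Over all genes past the floor, 45.5% were lower and 2.57% were lower by at least 2-fold. Gpx1, the selenium-containing glutathione peroxidase of cytosol and mitochondria, was at 5.68 in No.8 and 7.23 in No.4, which was 2.94-fold lower in No.8. Its level in No.8 was just above 5.67. Gsr, the reductase that returns oxidized glutathione to its reduced form with NADPH, was at 7.69 in No.8 and 8.55 in No.4, a difference of -0.86. Gpx4, the peroxidase that acts on lipid hydroperoxides in membranes and protects from ferroptosis, was at 8.43 in No.8 and 8.76 in No.4. Gpx4 therefore differed by -0.32 where Gpx1 differed by -1.56.

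The 6 glutathione transferase genes, whose enzymes join glutathione to electrophiles, were all lower in colony No.8, and their median was -0.91. Over all genes past the floor, 45.5% were lower and the median was 0.04. Gsta1, of the alpha class, was at 5.41 in No.8 and 7.29 in No.4, which was 3.68-fold lower in No.8. Counted from 5.67 upwards, Gsta1 was at least 3.07-fold lower. Gstp1, the pi class gene that is a known marker of rat liver tumours, was at 9.68 in No.8 and 10.81 in No.4, which was 2.19-fold lower in No.8, and it was the member of this role above 5.67 in both colonies. The other alpha class gene, Gsta4, which acts on lipid aldehydes, was at 4.91 in No.8 and 5.34 in No.4, both under 5.67.

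The 3 mu class members were Gstm7, Gstm1 and Gstm2. Gstm7 was at 4.58 in No.8 and 5.65 in No.4, which was 2.11-fold lower in No.8. Gstm1 was at 5.30 in No.8 and 6.05 in No.4, and Gstm2 was at 4.88 in No.8 and 5.57 in No.4. Counted from 5.67, the difference of Gstm1 was -0.38, and Gstm7, Gstm2 and Gsta4 had none. With levels counted from 5.67, the median of the 6 genes was -0.19. The mu class genes lie together on chromosome 2, in the RefSeq order Gstm5, Gstm7, Gstm6, Gstm3, Gstm2, Gstm1 and Gstm4. Gstm5, which is no member, differed by -2.03 and Gstm4 by 0.13, while Gstm6 and Gstm3 were below the floor in both colonies. The genes of this class have close copies, and how far a feature of one also reads another is not known here.

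NADPH supply held the second largest difference of the whole list. Tkt, the transketolase of the non-oxidative pentose phosphate pathway, was at 9.42 in No.8 and 11.38 in No.4, which was 3.88-fold lower in No.8. Ranked from the lowest difference, Tkt was the 39th of the 11069 genes past the floor. Taldo1, the transaldolase that works beside it, was at 9.52 in No.8 and 10.73 in No.4, which was 2.32-fold lower in No.8. Me1, the cytosolic malic enzyme, which makes NADPH from malate, was at 6.94 in No.8 and 7.42 in No.4, a difference of -0.47. All 3 measured genes of this role were lower in No.8, beside 45.5% of all genes past the floor. Pgd of the oxidative branch was not analysed here.

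All 5 genes of the thioredoxin system and of peroxide removal were lower in colony No.8, each by less than 2-fold. Of all genes past the floor 45.5% were lower. Only 2.57% were lower and 2.91% higher by at least 2-fold. Srxn1, sulfiredoxin, which repairs over-oxidized peroxiredoxins, was at 5.52 in No.8 and 6.23 in No.4, a difference of -0.71. Txnrd1, the cytosolic thioredoxin reductase, was at 9.64 in No.8 and 10.27 in No.4, a difference of -0.63. Its substrate gene Txn1, thioredoxin, was at 11.24 in No.8 and 11.63 in No.4. Cat, the peroxisomal catalase, was at 9.67 in No.8 and 9.98 in No.4. Prdx1, a peroxiredoxin, was at 9.50 in No.8 and 9.69 in No.4. The differences of Cat (-0.31) and Prdx1 (-0.19) were smaller in size than 0.39, a robust spread of all differences. That of Txn1 (-0.39) was about as large as this spread. The differences of this role lay between -0.71 and -0.19, a narrower range than that of the transferases, which ran from -1.88 to -0.44.

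**Figure D3:**
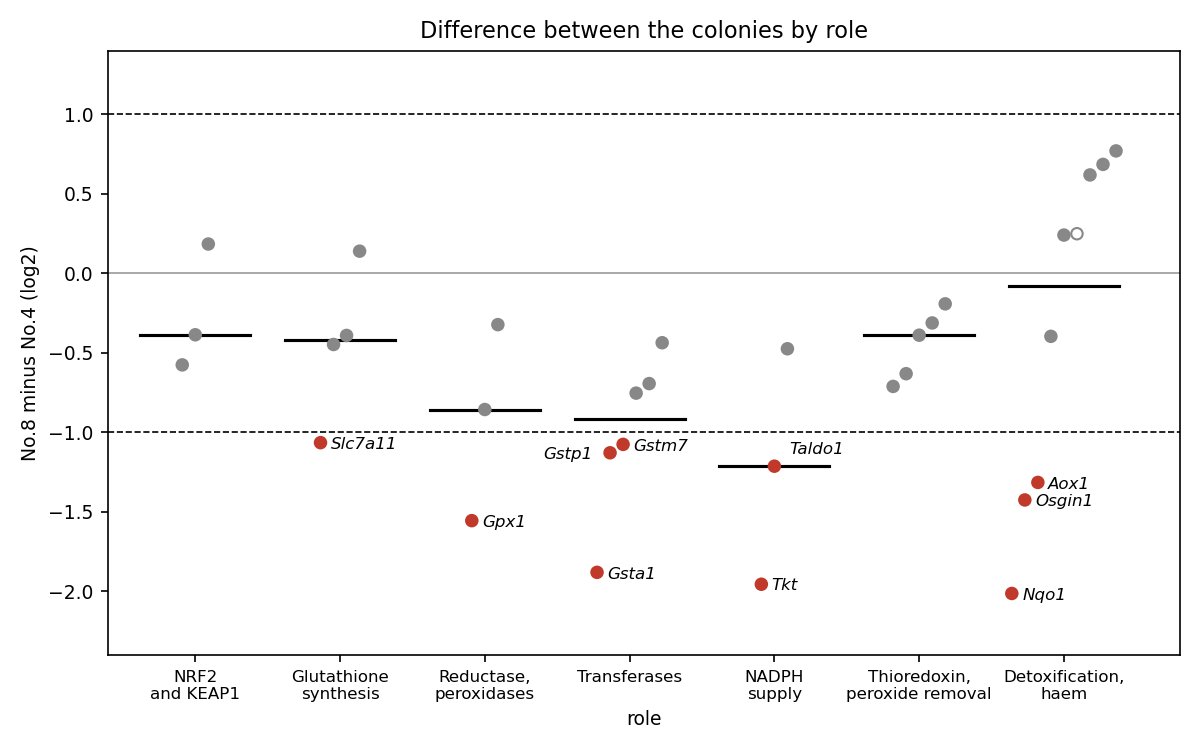
Difference between the colonies (No.8 minus No.4, log2, y axis) for each measured gene, by role (x axis), with the median of genes past the floor as a black bar, dashed lines at 2-fold, genes at least 2-fold lower in colony No.8 in red and Ephx1, below the floor, as an open circle. The roles of reductase and peroxidases, transferases, NADPH supply and thioredoxin lie wholly below 0, and the detoxification genes spread from -2.01 to 0.77.

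Detoxification genes were the least uniform group. Of the 8 past the floor, 4 were lower and 4 higher in colony No.8, beside 45.5% and 53.2% of all genes. The median of the 8 was -0.08, and 0.24 over all 9 measured genes, so it has no settled direction. Nqo1, which reduces quinones by 2 electrons and is a widely used readout of NRF2, was at 9.59 in No.8 and 11.60 in No.4, which was 4.04-fold lower in No.8. Its difference was the lowest of all members and the 37th lowest of the 11069 genes past the floor. Osgin1, an oxidative stress induced growth inhibitor, was at 5.40 in No.8 and 6.83 in No.4, which was 2.69-fold lower in No.8, or at least 2.22-fold counted from 5.67. Aox1, an aldehyde oxidase, was at 6.22 in No.8 and 7.53 in No.4, which was 2.49-fold lower in No.8.

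The 4 genes that were higher in colony No.8 differed by less than 2-fold. Hmox1, haem oxygenase 1, which opens the haem ring, was at 7.60 in No.8 and 6.98 in No.4, which was 1.54-fold higher in No.8. Blvrb, biliverdin reductase B, which also reduces flavins, was lower instead, at 7.67 in No.8 and 8.07 in No.4. Ugdh, which makes the UDP-glucuronic acid used for glucuronidation and for hyaluronan, was at 8.64 in No.8 and 7.95 in No.4, which was 1.61-fold higher in No.8. Cbr3, a carbonyl reductase, was at 5.84 in No.8 and 5.60 in No.4. Ephx1, the microsomal epoxide hydrolase, was below the floor in both colonies, at 4.07 in No.8 and 3.82 in No.4.

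Cbr1, the other carbonyl reductase, was the only member with more than 1 single-symbol feature, and its 3 features disagreed. The brightest, which stands for the gene, was at 9.70 in No.8 and 8.93 in No.4, a difference of 0.77. The second was at 6.59 in No.8 and 7.09 in No.4, a difference of -0.50, and the third was at 5.29 in No.8 and 5.11 in No.4. The mean of the 3 features gave a difference of 0.15, so the direction for Cbr1 rests on the choice of feature.

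Outside the members, 6 lists of textbook genes of the same pathway, 134 genes in all with 95 past the floor, held a smaller share of large differences, 10 of 95 against 10 of 32 members. Of the 95 genes, 9 were lower by 2-fold or more, and 1 (Dpp3) was higher by that much, beside the shares of 2.57% and 2.91% over all genes. Their median difference was -0.05, and 57 were lower and 37 higher in No.8. The median of the members was thus lower than that of the 95 genes. Members and lists were chosen with earlier results of these data known, so the contrast only describes these 2 arrays.

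Among 13 regulators and partners of NRF2, 8 were lower in colony No.8, beside 45.5% of all genes past the floor, and the median was -0.30. Maff, a small MAF protein that dimerizes with NRF2, was at 6.22 in No.8 and 7.56 in No.4, which was 2.54-fold lower in No.8. Bach2, a repressor that competes for the same DNA element, was at 4.32 in No.8, just below the floor, and at 5.69 in No.4, which with the floor as its lowest value is at least 2.57-fold lower in No.8. Counted from 5.67, Bach2 differed by -0.02. Dpp3, a peptidase that binds KEAP1, went the other way, at 8.29 in No.8 and 7.23 in No.4, which was 2.08-fold higher in No.8.

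In the list of other transferases and peroxidases, 2 of the 9 past the floor were lower in colony No.8 by 2-fold or more, and the median was 0.13. Over all genes past the floor 2.57% were lower by that much. Gstm5 was at 6.88 in No.8 and 8.91 in No.4, which was 4.08-fold lower in No.8. Mgst2, a microsomal glutathione transferase, was at 8.45 in No.8 and 9.52 in No.4, which was 2.10-fold lower in No.8. Of 21 other thioredoxin, peroxiredoxin and superoxide genes past the floor, 1 reached 2-fold. This share of 4.76% is near those over all genes, 2.57% lower and 2.91% higher. The gene was Prdx5, a peroxiredoxin of mitochondria and peroxisomes, at 7.66 in No.8 and 8.82 in No.4, which was 2.24-fold lower in No.8. The median of that list was -0.14.

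Of 26 other detoxification, haem, iron and export genes past the floor, 4 were lower in colony No.8 by 2-fold or more and 19 were lower by any amount, with a median of -0.11. Over all genes past the floor these shares were 2.57% and 45.5%. Pir, the iron-binding protein pirin, was at 5.95 in No.8 and 7.33 in No.4, which was 2.60-fold lower in No.8. Akr1b8, an aldo-keto reductase, was at 9.99 in No.8 and 11.27 in No.4, which was 2.43-fold lower in No.8. Lrp8, a receptor for reelin and apolipoprotein E, was at 8.36 in No.8 and 9.48 in No.4, which was 2.17-fold lower in No.8. Abcc4, an exporter of organic anions and cyclic nucleotides, was at 7.39 in No.8 and 8.40 in No.4, which was 2.01-fold lower in No.8.

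No gene of the remaining lists reached 2-fold, where 2.57% of all genes past the floor were lower and 2.91% higher by that much. For 11 other genes of glutathione synthesis and turnover the median was -0.03. The largest difference there was that of Chac1, which breaks glutathione down, at 8.49 in No.8 and 9.23 in No.4. It was followed by Gsto1, an omega class transferase, with -0.42, and by Ggt7 with 0.28. The 15 other NADPH supply genes had a median of 0.22, with 10 of them higher in No.8, unlike Tkt and Taldo1. Nadk2, the mitochondrial NAD kinase, differed by 0.78 with both levels near 5.67 or under it, Me2, the mitochondrial malic enzyme, by -0.71 and Tkfc by 0.63.

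**Figure D4:**
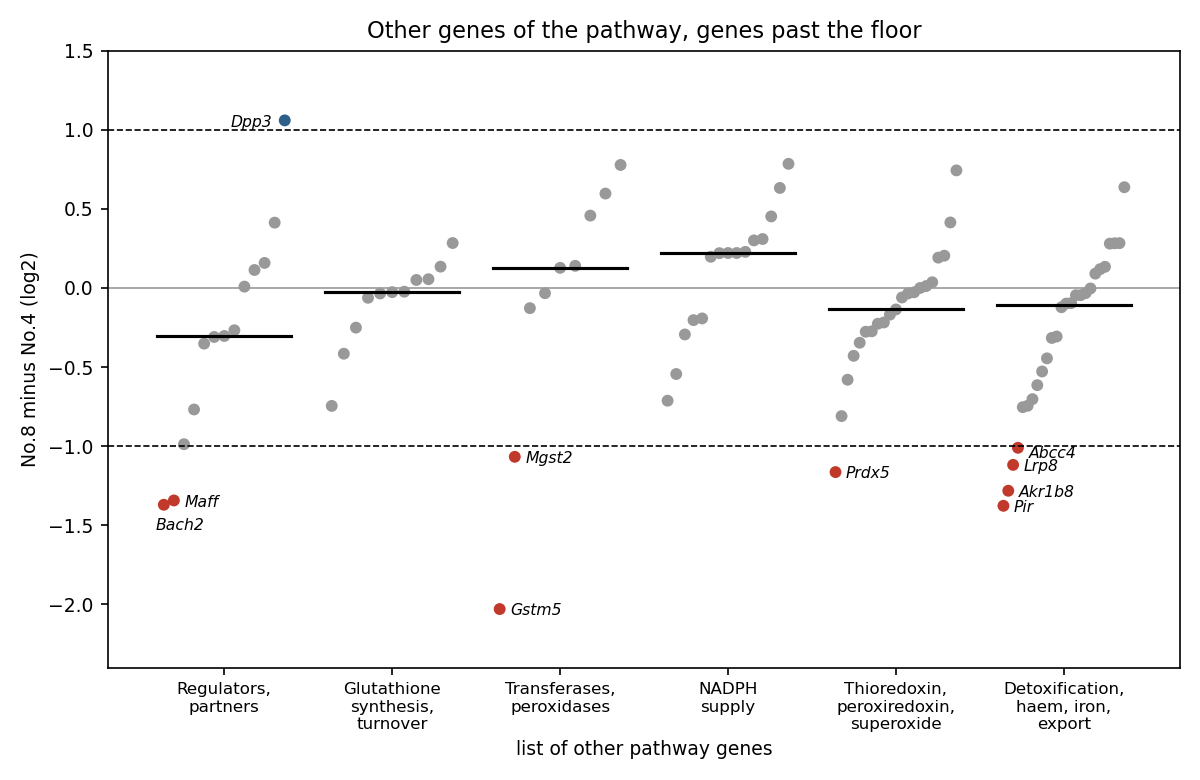
Difference between the colonies (No.8 minus No.4, log2, y axis) for the 95 genes past the floor of 6 lists of other pathway genes (x axis), sorted within each list, with the median as a black bar and dashed lines at 2-fold. The 9 genes at least 2-fold lower in colony No.8 are red and named, and Dpp3, higher by 2-fold or more, is blue.

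The position of the 10 members on the chromosomes was also examined, using the RefSeq gene order. For each, the 2 nearest genes past the floor on each side were taken, which gave 38 different genes that are no members. Their median difference was -0.06, with 22 lower and 14 higher in colony No.8. Of the 38, 3 were at least 2-fold lower and 0 at least 2-fold higher in No.8, beside the 2.57% and 2.91% over all genes. These were Gstm5 beside Gstm7, Pcdh18, a protocadherin gene beside Slc7a11 (6.59 in No.8 and 7.73 in No.4), and Gatd1 beside Taldo1 (6.56 in No.8 and 7.60 in No.4). Beside Nqo1, Nob1 differed by -0.51 and Nfat5 by -0.57, and beside Tkt, Dcp1a differed by -0.66 and Prkcd by 0.11. The nearest genes of Gpx1, Rhoa and Usp4, differed by 0.07 and -0.05, and those of Gstp1, Ndufv1 and Cabp2, by 0.00 and -0.01. The nearest genes of Gsta1, Tmem14a and Gsta6, differed by -0.05 and -0.19, and beyond them Paqr8 differed by 0.84 and Kcnq5 by -0.82. Near Gstm7, Csf1 differed by 0.72. Not all of the 38 are named here.

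**Figure D5:**
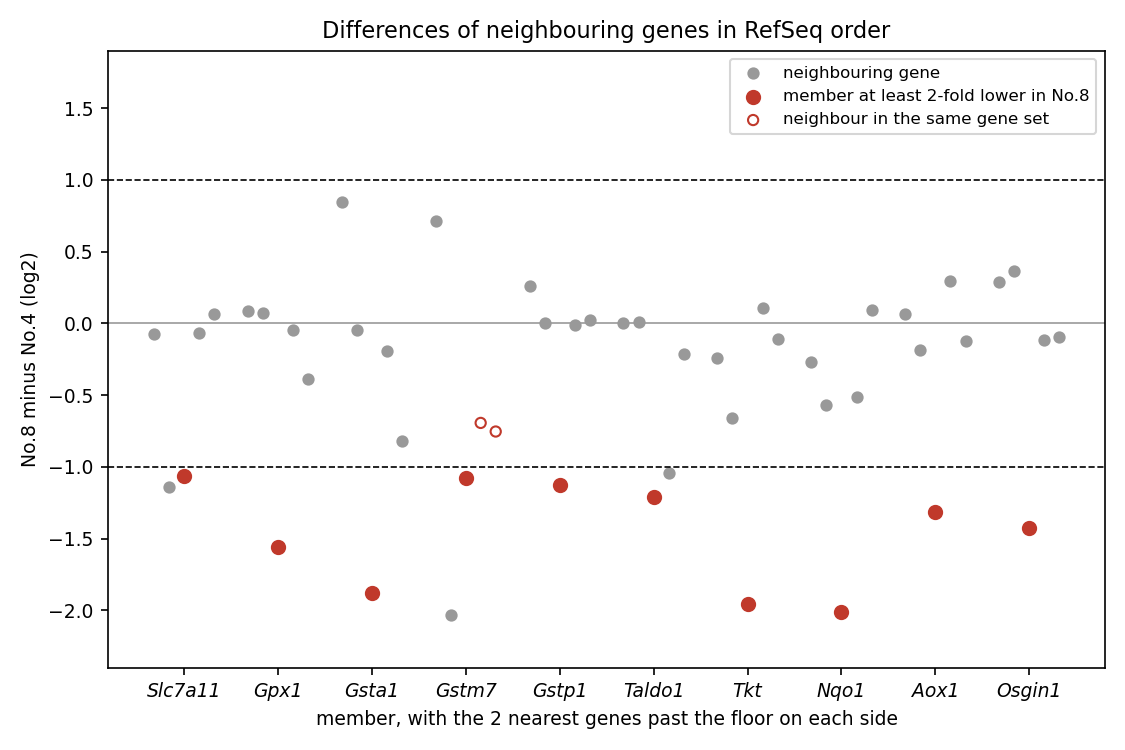
Difference between the colonies (No.8 minus No.4, log2, y axis) for the 10 members at least 2-fold lower in colony No.8 (large red points) and the 2 nearest genes past the floor on each side in RefSeq order (grey, or open red circles where the neighbour is a member, x axis offset by side), with dashed lines at 2-fold. Of 38 grey points 3 lie below the lower dashed line, and none lies above the upper one.

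The cell type on the labels was checked against markers. Of 10 glial and progenitor markers, 7 were past the floor, such as S100b (8.46 in No.8 and 8.24 in No.4) and Vim (12.60 in No.8 and 12.57 in No.4), while Slc1a3, Fabp7 and Aqp4 were below it in both. These markers were not all alike in the colonies: the connexin gene Gja1 differed by -1.12, Sox2 by -0.64 and Nes by 0.40. Gfap was at 5.17 in No.8 and, below the floor, at 4.11 in No.4. Of 6 microglia and macrophage markers 5 were below the floor in both colonies, as were 3 of 4 neuron markers and both measured endothelial markers. Markers of other lineages also differed between the colonies. All 6 measured oligodendrocyte lineage markers were lower in No.8, beside 45.5% of all genes past the floor. The 2 that were at least 2-fold lower, beside 2.57% of all genes, were Olig2 (-2.14) and Cspg4 (-1.74). Counted from 5.67, each of these differed by -0.69, and Olig2 was below the floor in No.8. Pdgfra differed by -0.71 and Sox10 by -0.33. Mbp (-0.04) and Mog (-0.11) hardly differed and were under 5.67 in both colonies. Summed on the linear scale, the 6 were at 1489 in No.8 and 2249 in No.4, most of it Pdgfra and Sox10. The summed linear level of the 4 fibroblast markers was 1638 in No.8 and 340.5 in No.4, nearly all of it Col1a1, with Dcn and Lum below the floor in both. Their part in the differences of the NRF2 and glutathione genes was not tested. In RNA of a whole colony, fewer cells that express a gene and less RNA per cell cannot be told apart.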

How the data were processed

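Total RNA of 2 colonies was measured on 1 GeneChip whole-transcript array each. The authors deposited 1 value per feature and colony, used here as log2 levels. The scale is unstated, and base 2 was taken because the highest value is 13.3, too high for a natural or base-10 log of scanner values. The software, background correction, normalization and summarization: not given in the sources used here. The distance of a level from background is therefore unknown. Of 36685 features, 18511 had exactly 1 gene symbol in the platform annotation. The feature with the highest mean level stood for a gene. The gene IDs of all 33 measured members were in the RefSeq table of assembly GRCr8, with the same symbols. It gave names and gene order, and its promoter table for sequences.

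Differences were taken without further scaling, using numpy 2.4.6 and pandas 2.3.3. With 1 array per colony there are no tests, and the number of arrays limits the precision. Every member was named, as were the genes of the 6 other lists that reached 2-fold and up to 3 genes of a list with none. Of the neighbours of members that reached 2-fold, those that reached it themselves and only some of the others were named. The members, lists and thresholds were chosen with earlier results of these data known. The 2-fold rule was tried on simulated differences, and the choice of feature and quantile normalization on a small made-up table. The other steps were not tested this way. Alternatives changed the scaling, floor, feature, offset, fold size and summary.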

Additional observations from a re-analysis of the deposited data

How the results depend on the processing

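The 10 members at least 2-fold lower in colony No.8 all remained so with quantile normalization, a median-centred difference, a loess on mean level, the mean of all features, no floor, a floor reached in both colonies and levels raised to the floor. Under these settings the share over all genes lay between 1.62% (no floor) and 2.81% (median-centred). With the floor at 5.67, or with levels raised to 5.67 (an alternative added after the data had been seen), 9 remained and Gstm7 did not. The shares over all genes were then 3.05% and 1.77%. An offset of 64 on the linear scale, which pulls differences of dim genes towards 0, left 5 (without Slc7a11, Gpx1, Gstm7, Aox1 and Osgin1, against 0.723% of all genes), and counting 3-fold left 3, against 0.705%. At 1.5-fold, 15 of 32 members were lower and 3 higher in No.8, against 7.93% and 9.87% of all genes. Without the 6 transferases, also added later, 7 of 26 were at least 2-fold lower, against 2.57% of all genes, and the median was -0.42. The median of the transferases was -0.36 with the offset and -0.19 with levels raised to 5.67. Of the 95 other pathway genes, 2 were lower and 0 higher with the offset (0.723% and 0.786% of all genes), 18 and 7 at 1.5-fold (7.93% and 9.87%), and 1 and 0 at 3-fold (0.705% and 0.949%). The other medians and counts moved by less than 0.39, a robust spread of all differences, or by less than 1.5 times. No paired analysis was possible because each colony has 1 array. Leaving out a replicate was not possible for the same reason. Signal over background is not known from these values.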

Other observations

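Of the 11069 genes past the floor, 145 had exactly equal deposited values in colonies No.8 and No.4, among them Ndufv1 (7.66 in both). None of the 32 NRF2 and glutathione genes past the floor was among them, which says little at so low a share over all genes.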
